A study of Danio rerio with 6 samples.

Results

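Aquaporins are membrane channels that let water, and in some family members glycerol or other small solutes, cross a cell membrane. In the mammalian nephron AQP1 carries water in the proximal tubule, AQP3 and AQP4 sit in the basolateral membrane of collecting duct cells, and AQP7 and AQP11 belong to the proximal tubule. A freshwater fish makes dilute urine, and its distal tubule is known for taking up salt while letting little water follow. The 10 listed genes were aqp1a.1, aqp1a.2, aqp3a, aqp3b, aqp4, aqp7, aqp8a.1, aqp9a, aqp10a and aqp12. They are listed by symbol, with earlier results of these data known, and the matching below used no measured value.

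Rows of the deposited count table were matched to these symbols, ignoring case. Where a symbol with its copy letter was missing, every row of the symbol without it was taken. Of the 10 symbols 9 were matched, to 9 of 31953 rows. AQP1 stands for aqp1a.1 and aqp1a.2 and AQP3 for aqp3a and aqp3b, each with 2 rows that the symbol table does not tell apart, so both rows are given by identifier. AQP8 stands for aqp8a.1, AQP4 for aqp4, and aqp7, aqp10a and aqp12 matched directly. The symbol aqp9a had no match and was not analysed here.

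RNA came from adult zebrafish (Danio rerio) of the line Tg(slc12a3:mCherry), whose red reporter is driven from the gene of the thiazide-sensitive sodium-chloride cotransporter. The mesonephros is the adult kidney of the fish. In the DL group, labelled mCh+, 3 libraries came from hand-dissected distal late (DL) segments. In the rest group, labelled mCh-, 3 libraries came from the mesonephros without those segments. All fish carried the transgene, and the labels give neither the number of fish behind a library nor whether libraries share fish, so a p-value reflects the spread among these libraries alone, and that spread may be technical. The comparison asks which aquaporins mark the distal late segment within the kidney, and it does not resolve the other segments of the nephron from each other.

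Total counts ranged from 9320756 to 22776825 per library. The most abundant gene of DL replicate 1 and rest replicate 3, si:dkey-153m14.1, held 38.3% and 36.9% of their counts. In the other libraries the most abundant was another gene, ENSDARG00000080337, with between 11.9% and 22.2%. The scaling factors of DL replicate 1 and rest replicate 3 were 0.52 and 0.53, against 1.14 to 1.80 elsewhere. SLC12A3, the reporter's own gene, read 251, 905 and 32.9 CPM (counts-per-million on the scaled library size) across the DL libraries, here and below in the order of replicates 1 to 3, and 30.4 to 43.0 CPM across the rest libraries, so the library labelled DL replicate 3 lay within the rest libraries. The 8 fixed markers of the distal late segment summed to 3816, 5577 and 1080 CPM across the DL libraries and to 217 to 575 CPM across the rest libraries. These markers were chosen with earlier results of these data known, so their sums are no independent check of the dissection. In DL replicate 3 a single row of the stanniocalcin gene, STC1_ENSDARG00000058476, a marker of the corpuscle of Stannius (an endocrine gland on the fish kidney), stood at 11220 CPM, against at most 343 CPM elsewhere. The other 5 markers of that gland summed to 15.5 CPM there, with 3.20 to 17.2 CPM in the other libraries.

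No aquaporin was distinguished between distal late segments and the rest of the mesonephros. Of the 9 member rows 5 passed the filter on low counts, and edgeR's quasi-likelihood test called 0 of these 5 higher and 0 lower at an adjusted p of 0.05. Over all 17083 genes tested it called 0.0644% higher and 0.0% lower. SLC12A3 itself was not called, at a log2 fold change (DL minus rest) of 3.37 ± 0.92 (SE, edgeR adjusted p = 0.292). Of the 8 distal late markers the test called 2 higher. A lack of calls is therefore no sign of equal levels. At an unadjusted p under 0.05 the test had 1 member lower, AQP3_ENSDARG00000003808, and 0 higher, beside 2.73% of all genes lower and 4.09% higher. DESeq2 also called 0 members, beside 1.36% of all genes higher and 0.34% lower, with 0 members at an unadjusted p under 0.05, where 4.89% of all genes were higher and 3.99% lower. So did limma-voom, beside 0.0351% of all genes higher and 0.0% lower, with 2 members lower and 0 higher at an unadjusted p under 0.05, where 3.67% of all genes were lower and 5.19% higher. DESeq2 gave AQP3_ENSDARG00000003808 no p.

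In 4 of the 5 tested members, AQP1, AQP3, AQP4 and AQP8, the estimated difference was negative, which was so for 53.5% of all genes. The median log2 fold change (DL minus rest) was -1.33 over the 5 and -0.07 over all genes. Their median standard error was 1.23 on the log2 scale, against 0.79 over all genes. The 9 rows together drew 116, 234 and 122 counts across the DL libraries and 539, 792 and 189 counts across the rest libraries. These raw counts also depend on library size. On the scaled library size the sums were 16.12, 8.883 and 11.54 CPM in DL and 16.41, 42.89 and 32.02 CPM in the rest. DL replicate 1 and rest replicate 1 were thus nearly level.

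**Figure D1:**
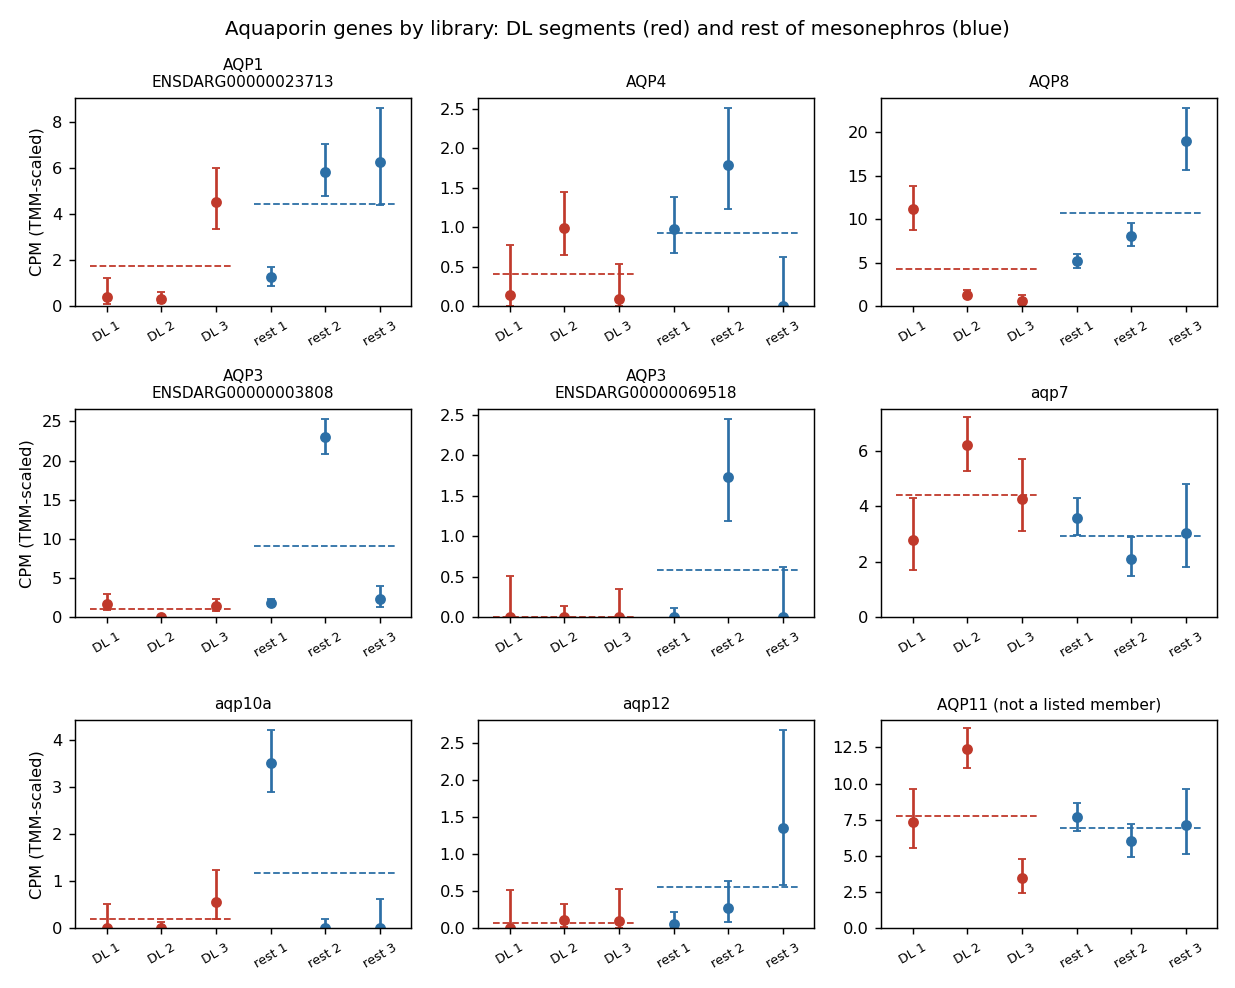
Level of each aquaporin row with counts in at least 1 library among the members, and of AQP11, in CPM on the scaled library size (y axis, from 0) in the 3 DL and 3 rest libraries (x axis). Points are libraries, bars are exact 95% Poisson intervals that cover counting error only, and dashed lines are group means; AQP3_ENSDARG00000003808 reached 23.0 CPM in rest replicate 2 and at most 2.37 CPM in the other 5 libraries.

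Among the water channels, AQP8, which in other vertebrates passes water and also ammonia and hydrogen peroxide, and which in zebrafish is known from vessel endothelium, read 11.1, 1.29 and 0.567 CPM across the DL libraries. Across the rest libraries it read 5.17, 8.12 and 19.0 CPM. DL replicates 2 and 3 lay below every rest library, whereas DL replicate 1 lay above 2 of them. The group levels were 4.32 ± 5.89 and 10.8 ± 7.27 CPM (SD, n = 3 each). The log2 fold change was -1.33 ± 1.01 (SE), with an edgeR adjusted p of 0.96 and a 95% interval of -3.54 to 0.88.

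The AQP8 estimate moved with DL replicate 1 and with the scaling. Without DL replicate 1 the log2 fold change of AQP8 was -3.43 (unadjusted p = 0.00505, edgeR adjusted p = 0.522). Leaving out rest replicate 3 as well gave -2.79 (edgeR adjusted p = 0.833), and leaving out rest replicate 3 alone gave -0.63. Scaled by library size alone, the levels were 5.77, 1.49 and 0.644 CPM across the DL libraries and 9.28, 12.2 and 10.1 CPM across the rest libraries. On that scale every DL library lay below every rest library, as it did for 6.25% of all genes (2.08% had every DL library above).

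AQP1_ENSDARG00000023713, a water channel that zebrafish express in red blood cells and vessel endothelium, read 0.417, 0.302 and 4.54 CPM across the DL libraries. Its values across the rest libraries were 1.25, 5.85 and 6.27 CPM. DL replicates 1 and 2, with 3 and 8 counts, lay below every rest library, while DL replicate 3, with 48 counts, lay among them. The log2 fold change was -1.34 ± 1.23 (SE), with an edgeR adjusted p of 0.989 and a 95% interval of -4.03 to 1.35. Without DL replicate 3 it was -3.58 (unadjusted p = 0.0337, edgeR adjusted p = 0.463). The other AQP1 row, AQP1_ENSDARG00000091027, had 0 counts in all 6 libraries, where 3 counts would be 0.0913 to 0.508 CPM.

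On the scaled library size, red cell markers were lowest in the same 3 libraries as AQP1. The 11 erythroid genes, found for 10 of 12 listed symbols, summed to 73.1, 55.9 and 776 CPM across the DL libraries and to 127, 689 and 408 CPM across the rest libraries. The 3 libraries lowest in AQP1 (DL replicate 2, DL replicate 1, rest replicate 1) were also the 3 lowest, in the same order, for the erythroid sum. Among the other 3 the order was the reverse, with rest replicate 3 highest in AQP1 and DL replicate 3 highest in the erythroid sum. The globin gene hbaa1 reached 427 CPM in DL replicate 3, with 9.59 and 4.99 CPM in DL replicates 1 and 2, and hbae1.1 was at 0 in every library. Without hbaa1 the reversed order was gone. Rest replicate 2 was then highest, at 487.5 CPM, with 348 CPM in DL replicate 3 and 238 CPM in rest replicate 3. The 3 lowest libraries kept their order, at 51.0, 63.5 and 89.3 CPM. AQP1 and these sums share the same scaling factors. By library size alone the order of AQP1 changed, with DL replicate 1 lowest, at 0.216 CPM, before DL replicate 2, at 0.351 CPM. The erythroid sum is not given on that scale, so the match is shown for the scaled library size only. The 12 endothelium genes, found for 13 of 14 symbols, summed to 327, 639 and 1180 CPM across the DL libraries and to 890, 864 and 917 CPM across the rest libraries, with none at 0. In bulk samples, fewer cells of a type and less RNA per cell cannot be told apart, and the part of red cells or vessels in the AQP1 level was not tested.

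**Figure D2:**
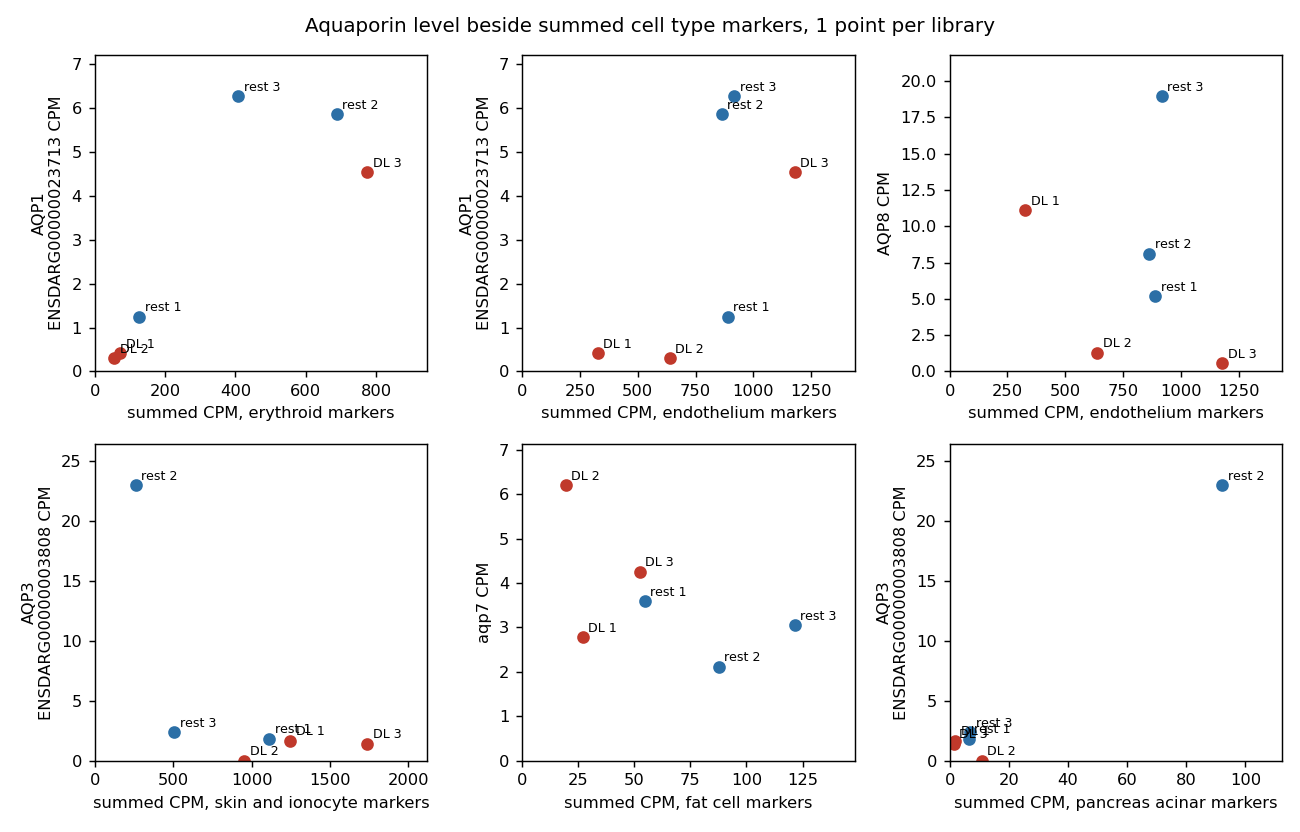
Level of AQP1, AQP8, AQP3 and aqp7 in CPM (y axes, from 0) against the summed CPM of fixed cell type markers (x axes), 1 point per library, DL in red and rest in blue. Both axes are on the scaled library size. There AQP1 lies at or under 1.25 CPM in the 3 libraries whose erythroid markers sum to at most 127 CPM. In the other 3 libraries AQP1 lies at or over 4.54 CPM.

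For AQP8 the endothelium sum ran otherwise, since DL replicate 3 had the highest sum and the lowest AQP8. Stroma and smooth muscle markers, 15 genes found for 13 of 14 symbols, summed to 2507, 414 and 1415 CPM across the DL libraries and to 2566, 1889 and 4315 CPM across the rest libraries, with none at 0 throughout. On the scaled library size, rest replicate 3 was highest in both AQP8 and this sum. DL replicates 2 and 3 were lowest in both. AQP8 and the marker sums share the same scaling factors. By library size alone AQP8 was highest in rest replicate 2, at 12.2 CPM, with 10.1 CPM in rest replicate 3. The marker sums are not given on that scale. The part of stroma and smooth muscle cells in the AQP8 level was not tested. By root mean square difference in centred log2 CPM over the 6 libraries, the 3 genes closest to AQP8 among 7285 candidates were KIF4A (0.506), NUP107 (0.637) and CLDN5_ENSDARG00000043716 (0.666). These distances describe 6 libraries and carry no test.

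AQP4, a water channel of astrocyte endfeet and collecting duct cells in mammals, was near the limit of counting. It drew 1, 26 and 1 counts across the DL libraries and 32, 33 and 0 across the rest libraries, or 0.139, 0.983, 0.0946, 0.974, 1.79 and 0 CPM in that order. DL replicate 2 and rest replicate 1 were level, and the groups overlapped. The log2 fold change was -1.13 ± 1.72 (SE), with an edgeR adjusted p of 0.999. Its 95% interval ran from -4.89 to 2.63, and its upper end is a 6.18-fold higher level in DL. Without DL replicate 2 the value was -2.94, and without rest replicate 2 it was -0.28 (edgeR adjusted p = 1 in both).

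Among the aquaglyceroporins, the channels that also pass glycerol, AQP3 showed the largest estimated difference of the 5 tested members. AQP3_ENSDARG00000003808 read 1.67, 0 and 1.42 CPM across the DL libraries and 1.86, 23.0 and 2.37 CPM across the rest libraries. Rest replicate 2, with 425 counts, stood far above the other 5 libraries, which had at most 61. Every DL library lay below every rest library, as for 6.28% of all genes, but the nearest pair, 1.67 and 1.86 CPM, differed by less than their counting intervals (0.862 to 2.91 and 1.42 to 2.39 CPM). Scaled by library size alone, the groups overlapped.

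The log2 fold change of this AQP3 row was -3.20 ± 1.44 (SE), with an unadjusted p of 0.0474 and an edgeR adjusted p of 0.722. Without rest replicate 2 it was -1.05 (edgeR adjusted p = 1), and over 15 alternatives it ranged from -4.75 to -1.05 with adjusted p-values from 0.521 to 1. An exact two-sided permutation test of the 6 values gave p = 0.1, the smallest that 3 against 3 libraries allow. Any gene whose groups do not overlap reaches this value, so it adds nothing to the lack of overlap. The other row, AQP3_ENSDARG00000069518, had 32 counts in rest replicate 2 and 0 in each of the other 5 libraries. Its pooled level was at least 8.2-fold lower in DL, with 3 counts over the 3 DL libraries taken as the floor, and without rest replicate 2 both groups were at 0.

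Rest replicate 2 was also the highest library in markers of exocrine pancreas. The 13 pancreas acinar genes, found for 11 of 16 symbols, summed to 92.2 CPM there, to 6.42 and 6.95 CPM in the other rest libraries and to 1.42 to 10.8 CPM in DL. Without the most abundant of them, CPA1_ENSDARG00000021339, the other 12 summed to 35.9 CPM in rest replicate 2 and to at most 6.27 CPM elsewhere. The trypsinogen gene prss1 had counts in rest replicate 2 alone, 8 of the 13 genes had 0 counts in all DL libraries, and cela1.3 was at 0 throughout. The sums of white blood cell markers were highest in rest replicate 2 as well, but not every gene was. The 15 neutrophil and macrophage genes, found for 10 of 14 symbols, summed to 1369 CPM there, to 246 and 952 CPM in rest replicates 3 and 1 and to 331 to 1037 CPM in DL, with none at 0 throughout. Of these, lyz alone stood at 687 CPM in rest replicate 2, with at most 228 CPM elsewhere. The protease gene MMP9 stood at 192 CPM in rest replicate 2 and at most 17.7 CPM elsewhere. Others peaked in another library. In rest replicate 1 cd74a stood at 503 CPM and SPI1 at 99.6 CPM, against 218 and 56.2 CPM in rest replicate 2. MFAP4_ENSDARG00000038681 stood at 38.3 CPM in DL replicate 2, against 7.47 CPM in rest replicate 2. The 10 lymphoid genes were found for 10 of 11 symbols, with none at 0 throughout. They summed to 282 CPM in rest replicate 2, to 68.3 and 156 CPM in rest replicates 3 and 1 and to 4.59 to 151 CPM in DL. Most of the lymphoid sum was the antibody gene ighm, and without it DL replicate 2 was highest, at 17.4 CPM against 15.2 CPM in rest replicate 2.

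Skin and ionocyte markers, cells in which fish AQP3 is known, summed to 263 CPM in rest replicate 2, the lowest of the 6 libraries, and to 508 to 1739 CPM elsewhere. Of those 10 genes the ionocyte factor gene foxi3b was at 0 everywhere. In rest replicate 2 krt4, epcam and cdh1 stood at 158, 42.35 and 40.9 CPM, but krt5 and TP63 at 0.704 and 0.975 CPM. The gene cdh1 read 390, 424 and 395 CPM across the DL libraries and 132, 40.9 and 164 CPM across the rest libraries. The sum therefore need not follow skin cells or ionocytes alone. The part of any of these cell types in the AQP3 level was not tested. The 3 genes closest to AQP3_ENSDARG00000003808 over the 6 libraries were hapln1a (0.430), FST_ENSDARG00000057992 (0.683) and thbs2b (0.738).

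The aquaglyceroporin gene aqp7, known in mammals for glycerol release from fat cells and glycerol uptake in the proximal tubule, was the 1 tested member with a positive estimate. It read 2.78, 6.20 and 4.26 CPM across the DL libraries and 3.59, 2.11 and 3.05 CPM across the rest libraries. DL replicates 2 and 3 lay above the rest and DL replicate 1 among them. The group levels were 4.41 ± 1.72 and 2.92 ± 0.749 CPM (SD, n = 3 each), and the log2 fold change was 0.60 ± 0.85 (SE; edgeR adjusted p = 0.999), with a 95% interval of -1.25 to 2.45. It stayed positive in all 15 alternatives, between 0.26 and 0.89, and passed the threshold in 0 of them. Fat cell markers were lowest in DL replicate 2, the library highest in aqp7, and DL replicate 1 was lowest once the most abundant of them, fabp4a, was left out (1.25 against 4.95 CPM in DL replicate 2). Their 7 genes, found for 7 of 8 symbols, summed to 27.0, 19.5 and 52.5 CPM across the DL libraries. Across the rest libraries they summed to 54.7, 87.7 and 122 CPM. The lipid droplet coat gene plin1 and 1 of 2 rows of the adiponectin gene ADIPOQ were at 0 in every library. The part of fat cells in the aqp7 level was not tested.

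**Figure D3:**
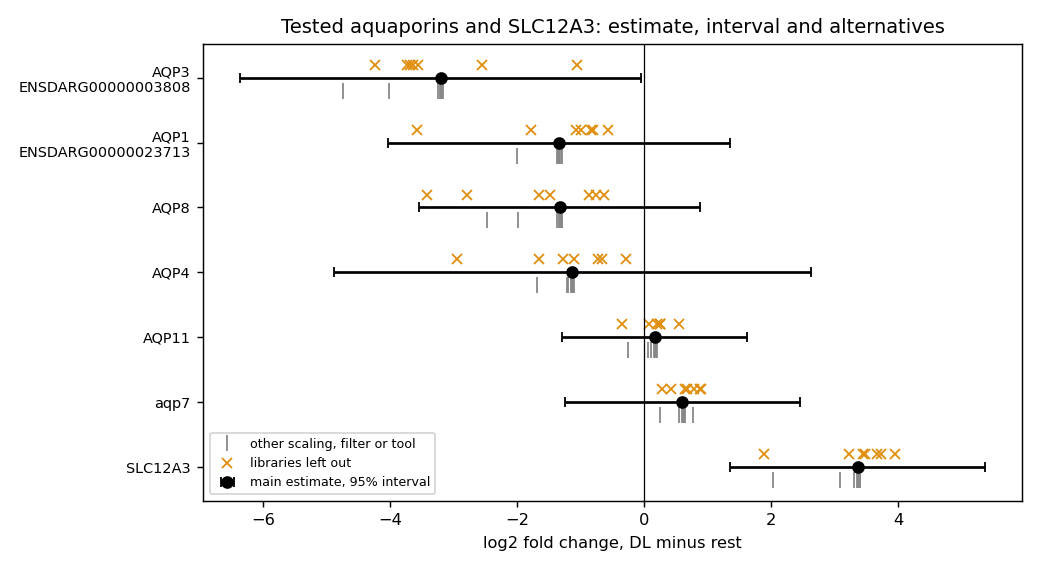
Log2 fold change, DL minus rest (x axis), of the 5 tested members, AQP11 and SLC12A3. Black points and bars are edgeR estimates with 95% intervals, orange crosses leave out libraries and grey ticks use another scaling, filter or tool; AQP1, AQP3, AQP4 and AQP8 lie below 0 in every alternative, with the intervals of AQP1, AQP4 and AQP8 crossing 0.

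The aquaglyceroporin gene aqp10a was carried by a single library. It had 115 counts, 3.50 CPM, in rest replicate 1, 6 counts in DL replicate 3 and 0 in the other 4. It failed the filter on low counts, and an exact two-sided permutation test gave p = 1. Rest replicate 1 was also the highest library in the 10 liver genes, at 103 CPM with 51.8 and 78.8 CPM for the other rest libraries and 16.1 to 39.2 CPM for DL. Most of that sum was apoa2, an apolipoprotein gene, at 71.7 CPM. The other 9 liver genes summed to 31.2 CPM in rest replicate 1, below rest replicates 2 and 3 at 49.2 and 75.7 CPM, so the list without apoa2 was not highest there. No liver gene of the list was at 0 in all libraries. Rest replicate 1 was also highest in the sums of the proximal tubule genes, at 1970 CPM with 976 to 1265 CPM elsewhere, and of the 8 podocyte genes, at 685 CPM with 285 to 576 CPM elsewhere. Podocyte genes without podxl were highest in rest replicate 2, at 387 CPM against 369 CPM in rest replicate 1. The part of any of these cells in the aqp10a level was not tested.

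The unorthodox aquaporin gene aqp12, known in mammals from acinar cells of the pancreas, drew 18.1 estimated counts in all. Its highest value was 1.36 CPM (8 counts) in rest replicate 3, and the other 5 libraries stood between 0 and 0.271 CPM. Rest replicate 2, the library highest in pancreas acinar markers, stood at 0.271 CPM, with a counting interval of 0.0879 to 0.632 CPM. An exact two-sided permutation test gave p = 0.3.

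Of the 7 other aquaporin rows in the table, AQP11 was the 1 that passed the filter. AQP11, an unorthodox aquaporin of intracellular membranes whose loss damages the proximal tubule in mice, read 7.36, 12.4 and 3.50 CPM across the DL libraries. Its values across the rest libraries were 7.67, 6.01 and 7.12 CPM. The rest libraries were close together and the DL libraries lay on both sides of them. The log2 fold change was 0.17 ± 0.66 (SE; edgeR adjusted p = 0.999), with a 95% interval of -1.29 to 1.62. Its sign turned to -0.26 when scaled by library size alone and to -0.35 without DL replicate 2. The 19 proximal tubule genes, AQP11 itself among them, summed to 976 to 1109 CPM in DL and to 1003 to 1970 CPM in the rest. Of 18 tested edgeR called 0, with 0 at an unadjusted p under 0.05. Over all genes it called 0.0644% higher and 0.0% lower, with 4.09% and 2.73% at that unadjusted p. Of the 18 estimates 14 were negative and 4 positive, and the lack of calls is no sign of equal levels.

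Set against the other aquaporin rows of the same library, the make-up of aquaporin counts varied widely within each group. These shares are of counts, which also depend on transcript length, so each gene is compared only with itself across libraries. AQP8 took 40.6% of the aquaporin counts in DL replicate 1, 6.03% in DL replicate 2 and 3.58% in DL replicate 3. In the rest libraries it took 21.5%, 16.5% and 44.6%. The share of aqp7 was 10.1%, 29.1% and 27.0% in DL and 14.9%, 4.31% and 7.01% in the rest. AQP1_ENSDARG00000023713 took 28.7% in DL replicate 3, against 1.52% and 1.42% in the other DL libraries. AQP3_ENSDARG00000003808 took 46.8% in rest replicate 2 and at most 8.96% elsewhere.

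**Figure D4:**
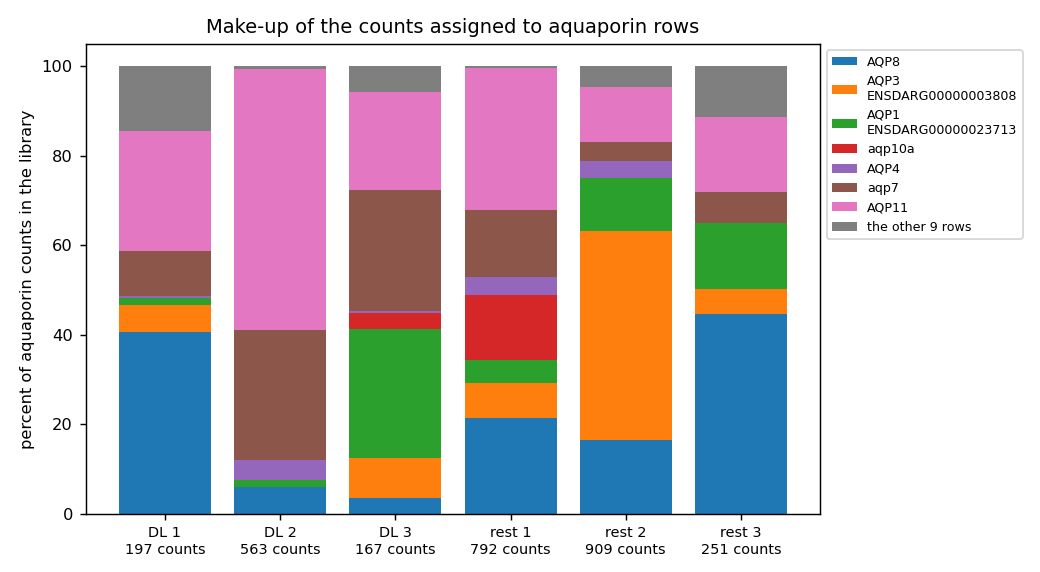
Percent of the counts assigned to the 16 aquaporin rows (y axis) taken by each row in the 6 libraries (x axis, with the number of aquaporin counts under each). AQP8 has its largest shares in DL replicate 1 and rest replicate 3, at 40.6% and 44.6%, AQP1_ENSDARG00000023713 in DL replicate 3, at 28.7%, and AQP3_ENSDARG00000003808 in rest replicate 2, at 46.8%; the height of a row is compared across libraries, not with other rows.

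Aquaporin traffic in the mammalian collecting duct is set by vasopressin through cyclic AMP, and no gene of that pathway passed the test. Of 25 genes found for 25 of 26 symbols 19 were tested, and edgeR, DESeq2 and limma-voom each called 0, with 0 at an unadjusted p under 0.05. Over all genes edgeR called 0.0644% higher and 0.0% lower, DESeq2 1.36% and 0.34%, and limma-voom 0.0351% and 0.0%. At that unadjusted p the shares were 4.09% and 2.73% in edgeR, 4.89% and 3.99% in DESeq2 and 5.19% and 3.67% in limma-voom. With shares this small, the lack of calls is no result about the list. The median log2 fold change of the 19 genes was -0.13, against -0.07 over all genes. Of the 19 estimates 12 were negative and 7 positive, beside 53.5% negative over all genes. The vasopressin V2 receptor gene avpr2aa averaged 1.64 ± 0.681 CPM over DL and 2.88 ± 1.82 CPM over rest libraries (SD, n = 3 each; log2 fold change -0.82, edgeR adjusted p = 0.999). PDE4B, a phosphodiesterase that breaks down cyclic AMP, stood at 150 ± 63.9 against 182 ± 20.5 CPM. The protein kinase A genes prkacaa and prkar1ab had log2 fold changes of 0.22 and 0.36, and creb1a, the factor this kinase acts on, one of -0.89.

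Genes for organic osmolytes, the small solutes that cells take up to hold water, held the smallest p-values of the 3 pathway lists. The myo-inositol transporter gene slc5a3b read 153, 111 and 117 CPM across the DL libraries and 30.3, 25.7 and 43.7 CPM across the rest libraries. The taurine transporter gene SLC6A6_ENSDARG00000098438 read 480, 400 and 160 CPM across the DL libraries and 84.9, 90.9 and 71.7 CPM across the rest libraries. In slc5a3b and this SLC6A6 row every DL library lay above every rest library, as for 6.82% of all genes. The other SLC6A6 row, SLC6A6_ENSDARG00000012534, overlapped between groups. It read 21.8, 26.2 and 15.9 CPM across the DL libraries and 40.4, 22.3 and 19.0 CPM across the rest libraries. The log2 fold changes of slc5a3b and SLC6A6_ENSDARG00000098438 were 1.94 ± 0.44 and 2.07 ± 0.53 (SE). Neither passed edgeR over all genes (adjusted p = 0.176 and 0.245).

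DESeq2 called slc5a3b and SLC6A6_ENSDARG00000098438 (adjusted p = 0.00361 and 0.00461), and limma-voom neither. Of 18 osmotic response genes found for 18 of 22 symbols 15 were tested. Among these edgeR and limma-voom called 0, and DESeq2 called 2 higher and 0 lower. Over all genes the shares called were 0.0644% higher and 0.0% lower in edgeR, 1.36% and 0.34% in DESeq2 and 0.0351% and 0.0% in limma-voom. At an unadjusted p under 0.05 edgeR, DESeq2 and limma-voom each had 2 higher and 0 lower. The shares over all genes at that p were 4.09% and 2.73% in edgeR, 4.89% and 3.99% in DESeq2 and 5.19% and 3.67% in limma-voom. The list median was 0.22. The tonicity-responsive factor gene nfat5a had a log2 fold change of -0.38 ± 0.48 (SE) and the inositol monophosphatase gene IMPA1 one of -0.62 ± 0.69 (SE). The other copy of the factor gene, nfat5b, read 4.45, 15.3 and 14.3 CPM across the DL libraries. Its values across the rest libraries were 0.0913, 10.4 and 4.91 CPM, so its groups overlapped.

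**Figure D5:**
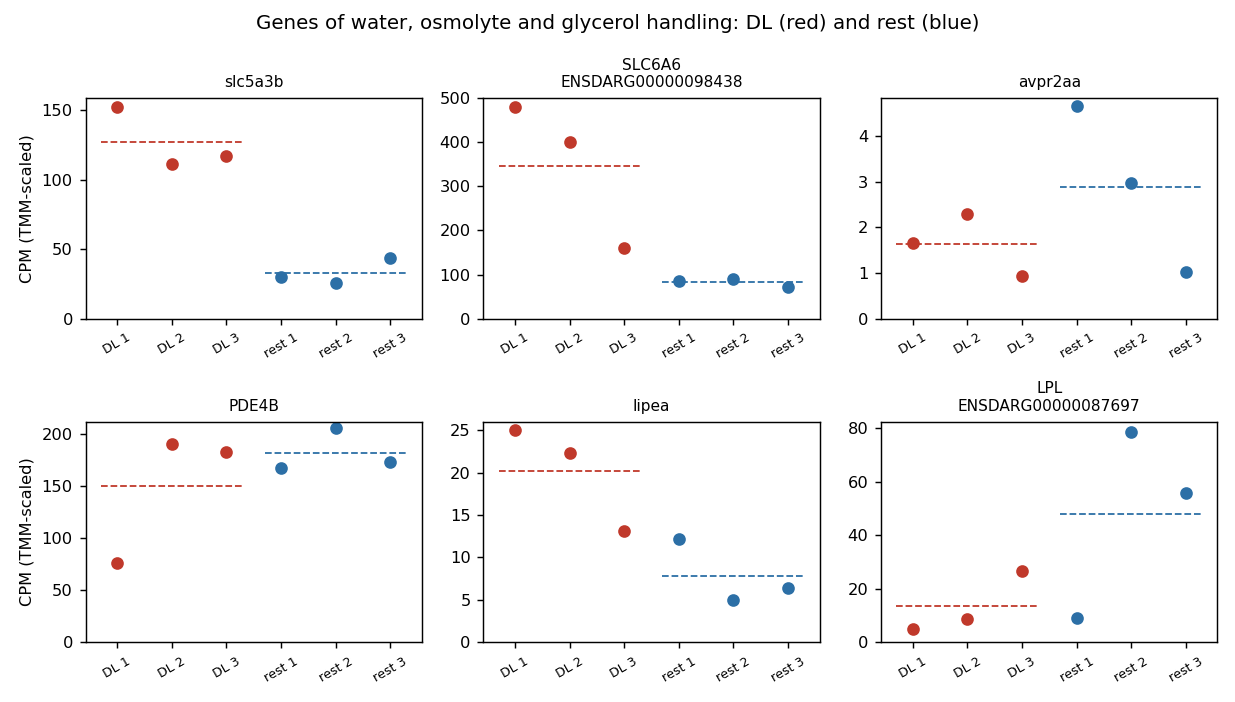
Level in CPM on the scaled library size (y axis, from 0) of 6 genes of osmolyte uptake, vasopressin signalling and glycerol handling in the 3 DL (red) and 3 rest (blue) libraries, with dashed group means. The DL libraries of slc5a3b sit between 111 and 153 CPM, above the highest rest library at 43.7 CPM, while avpr2aa and PDE4B overlap between groups.

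In glycerol handling, the metabolism served by aqp7 and AQP3, no gene passed the test. Of 21 genes found for 19 of 20 symbols 19 were tested, and edgeR, DESeq2 and limma-voom each called 0. The shares called over all genes were 0.0644% higher and 0.0% lower in edgeR, 1.36% and 0.34% in DESeq2 and 0.0351% and 0.0% in limma-voom. At an unadjusted p under 0.05 edgeR had 1 higher and 1 lower, with 1 and 1 in DESeq2 and 1 and 2 in limma-voom. A share of 4.09% of all genes was higher and 2.73% lower at that p in edgeR, 4.89% and 3.99% in DESeq2 and 5.19% and 3.67% in limma-voom, so counts this small are no result about the list. The hormone-sensitive lipase gene lipea, which frees glycerol from stored fat, stood at 20.2 ± 6.22 against 7.87 ± 3.80 CPM (SD, n = 3 each; log2 fold change 1.35 ± 0.56 SE, edgeR adjusted p = 0.647). Its other copy, lipeb, overlapped between groups, at 15.15, 10.21 and 4.92 CPM in DL and 6.67, 24.8 and 7.62 CPM in the rest. The lipoprotein lipase gene LPL_ENSDARG00000087697 stood at 13.4 ± 11.5 against 47.9 ± 35.6 CPM (log2 fold change -1.83 ± 0.79 SE, edgeR adjusted p = 0.673). The glycerol-3-phosphate dehydrogenase gene gpd1c had a log2 fold change of 1.02, the monoglyceride lipase gene mgll one of 0.36 and the triglyceride synthesis gene DGAT1_ENSDARG00000103503 one of -1.57. The list median was -0.38.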

How the data were processed

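The deposited values are expected counts, that is estimated counts per Ensembl gene that need not be whole, in 1 table of 6 libraries made by the authors. Per the labels' protocols, RNA of dissected tissue went into libraries made with a NuGEN Ovation single-cell kit. Which aligner, counter, strand setting and genome build were used is not given in the sources used here. An identifier table gave symbols to 26121 of 31953 genes. In the RefSeq assembly GRCz12tu, aqp1a.1 lies next to aqp1a.2 and aqp8a.2 next to aqp8a.1. Reads may be split between such copies, which makes the value of each copy uncertain.

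Counts were rounded, filtered with filterByExpr by group (17083 genes left) and scaled by TMM. The groups were compared in edgeR 4.0.16 (R 4.3.3) with the quasi-likelihood F test and robust dispersions, and p-values were adjusted over all genes by Benjamini-Hochberg at 0.05. Fold changes are DL minus rest, and each standard error was obtained by dividing the size of the log2 fold change by the root of F. Alternatives were DESeq2 1.42.0, limma-voom (limma 3.58.1) with sample quality weights, other scalings and filters, and leaving out libraries. The procedure was tested on simulated data in which only genes with a mean log-CPM of 3 or more were changed. The tested members had a median of 1.92 and a highest value of 2.93 (AQP8), so that simulation does not cover them. Poisson intervals and floors of 3 counts cover counting error only.

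Members and lists were chosen with earlier results of these data known. Named were all aquaporin rows, SLC12A3, and of each pathway list the 2 genes per direction with the smallest p and the most abundant gene. Of each cell type list the most abundant gene qualified, and not all are reported. For the 2 members with the highest mean log-CPM, the 3 most alike genes (mean log-CPM 3 or more, 0.5 CPM added before the log) were named. The other marker genes, and the copies SLC6A6_ENSDARG00000012534, nfat5b and lipeb, were named after their values were seen. Replicate numbers follow the order of deposition.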

Additional observations from a re-analysis of the deposited data

How the results depend on the processing

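The count of aquaporins past the threshold was 0 in each direction under all 15 alternatives, which tested 5 members each, or 8 without a low-count filter. DESeq2 gave no p for AQP3_ENSDARG00000003808. Over all genes edgeR called 11 higher and 0 lower. Scaled by library size alone it called 1 higher, and limma-voom called 6. Without a low-count filter there were 99 higher and 7 lower, and DESeq2 called 233 higher and 58 lower. Leaving out 1 library gave 0 to 51 higher and 0 to 2 lower, with 51 and 2 without DL replicate 3. Leaving out DL replicate 1 and rest replicate 3 together gave 0 higher. The cause was not tested. AQP11 turned to -0.26 when scaled by library size alone and ranged from -0.35 to 0.554 when 1 library was left out. That scaling also turned prkacaa to -0.29, mgll to -0.0591 and prkar1ab to -0.33, and shifted the median over all genes tested to -0.50 from -0.07. PDE4B ranged from -0.487 to 0.0818 when 1 library was left out and turned to 0.0140 without DL replicate 1 and rest replicate 3, where prkar1ab turned to -0.16. SLC12A3 passed without DL replicate 3 (3.96) and in DESeq2 (3.37).

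Summed with aqp8a.2, AQP8 had a log2 fold change of -1.30 (edgeR adjusted p = 0.96), and both AQP1 rows summed gave -1.34 (edgeR adjusted p = 0.989). The no-overlap reading under other scalings was added after the data were seen. RLE and the upper quartile gave AQP3_ENSDARG00000003808, as TMM did, and library size gave AQP8. The members drew few counts, with 10 or more in 3 to 6 of 9 rows per library, and such counts carry wide counting intervals. No paired analysis was made, because the labels number no replicates and do not say which DL and rest libraries belong together. DL and rest libraries alternate in the order of deposition, and that order was not taken as a pairing.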

Other observations

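The lens aquaporin MIP, known as the main membrane protein of lens fibre cells, had 2 rows with counts. MIP_ENSDARG00000037285 had 23 counts (3.20 CPM) in DL replicate 1 and at most 3 counts in each of the other 5 libraries. MIP_ENSDARG00000013963 had between 0.69 and 5.21 estimated counts per library. The aquaglyceroporin gene aqp10b drew 16.4 of its 23.0 estimated counts from rest replicate 3. The row aqp8a.2 had 3 counts in DL replicate 3 and none elsewhere, and aqp8b and aqp9b had 0 counts in all 6 libraries.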
